A study of Mus musculus with 5 samples.

Results

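Celf1 and Celf2 encode RNA-binding proteins of the CELF family. This report follows the cassette exons of these genes, exons kept in some transcripts and left out of others, in mouse left ventricle after streptozotocin. Every event of Celf1 or Celf2 was taken from 6 deposited tables of cassette exons, by the gene symbol of the tables or, where that was blank or at odds with the annotation, by the lengths of the exon and its introns. That gave 2 events, 1 per gene, of 6331 events present in all 6 tables. Both had enough reads to be tested, among 4769 tested events.

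The STZ group (3 libraries) came from C57BL/6 mice given streptozotocin at 70 mg/kg once a day for 5 days from 8 weeks of age. The Control group (2 libraries) came from C57BL/6 mice given citrate buffer by the same route and schedule. All were 12 weeks old, and RNA was taken from the left ventricle. Streptozotocin kills pancreatic beta cells and is a common way to model type 1 diabetes. The labels do not state that each sample was a separate mouse, so the p-values measure only the spread between these samples, which may be technical. The libraries are called STZ A, STZ B, STZ C, Control A and Control B, because the tables name them by codes that match no sample title. Which codes are STZ and which are Control was taken from the group sizes alone. The codes come in 2 naming styles, one per group, so treatment and naming style cannot be told apart.

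CELF proteins bind GU-rich stretches of RNA through 3 RNA recognition motifs. They act on alternative splicing in the nucleus and on mRNA decay and translation in the cytoplasm. In the heart, CELF1 and CELF2 are abundant before birth and fall to lower levels in the adult, while proteins of the MBNL family become more active, and exons of many muscle genes switch isoform in that period. CELF1 is also known for its rise in myotonic dystrophy and has been studied in diabetic heart.

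The annotation (GENCODE, GRCm38) places the exons at different ends of their proteins, so the sequences are shown to make clear what inclusion adds. The Celf1 exon is 152 nt long and lies on the plus strand at mm9 chr2:90827822-90827973, between introns of 47023 and 10763 nt. The tables leave its gene blank. It was matched to the exon at GRCm38 chr2:90987665-90987816. Of 14 annotated Celf1 transcripts, 3 hold that exon whole, only 1 of them between both introns of the event, and 3 skip it. In 2 annotated transcripts the first exon ends where this exon ends. Such transcripts can also give reads of the exon, and their part in the reads was not tested. The first 81 nt of the exon are 5′ untranslated and its last 71 nt are coding, from a start codon inside the exon. The next exon has a start codon of its own after 10 nt. Inclusion therefore opens the reading frame 27 codons further upstream, in frame and with 0 stop codons, which gives a protein of 513 residues where the skipping isoform has 486. These residues lie ahead of the first RNA recognition motif. The Celf2 exon is 144 nt long and lies on the minus strand at mm9 chr2:6470878-6471021, between introns of 3809 and 2618 nt. The tables give it the symbol 5031426D15Rik. It was matched to GRCm38 chr2:6549832-6549975, which is held by 11 of 28 annotated Celf2 transcripts and skipped by 4. The whole exon is coding, its length is a multiple of 3, and its 48 codons encode the start of the third RNA recognition motif near the C-terminus. The annotated protein with the exon has 484 residues and the 4 annotated proteins without it have 440 to 478. All 4 also differ from it in other coding exons, so these lengths do not show the 48 codons alone. The first line gives the coding part of the Celf1 exon joined to the next exon up to that exon's start codon (GRCm38 chr2:90987746-90998592, plus strand, with the intron removed). Capitals mark both start codons. The second gives the Celf2 exon (GRCm38, minus strand). Both are printed 5′ to 3′ from the annotated transcripts.
Celf1 coding part: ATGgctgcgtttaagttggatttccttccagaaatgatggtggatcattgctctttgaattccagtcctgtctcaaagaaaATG
Celf2 exon: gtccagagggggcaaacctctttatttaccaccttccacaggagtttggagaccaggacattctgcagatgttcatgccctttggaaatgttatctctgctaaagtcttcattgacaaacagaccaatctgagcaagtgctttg

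The 3 STZ libraries held 12692236 to 14913419 reads over all events and the 2 Control libraries 17154734 and 20963751. Levels are given as RPM, the reads on a gene's events scaled to 1000000 reads of all events. Markers of the labelled tissue were plentiful: events of 5 of 8 cardiomyocyte markers (Ldb3, Myom1, Ryr2, Tnnt2 and Ttn) summed to 37903 to 48781 RPM in STZ and 42631 to 44023 in Control. Reads on markers of other cells lay apart between the groups, higher in STZ for some and lower for others. How often RPM lay apart over all events was not counted, so this separation is not read as a result about cell types. The median event was itself lower in STZ by RPM, at -0.26 on the log2 scale. Endothelial Pecam1 (1 of 3 endothelial markers in the tables) had 3107 to 5332 RPM in STZ, against 1396 to 1548 in Control. The smooth muscle markers Myh11 and Smtn (2 of 3) summed to 759 to 963 in STZ, against 2620 to 2749 in Control. Fn1 (1 of 3 fibroblast markers) had 54.6 to 82.1 in STZ and 94.9 to 108 in Control, and Ptprc (1 of 3 leukocyte markers) 6.81 to 19.4 in STZ and 23.2 to 34.7 in Control. Skeletal muscle Tnnt3 (1 of 2) had 11 to 18.0 in STZ and 4.48 to 5.13 in Control, and 0 of 3 neuronal markers had an event in all 6 tables. Both Celf genes are active in many cell types, and the part of these marker differences in the results below was not tested. In such bulk samples, fewer cells of a type and less RNA per cell cannot be told apart.

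Inclusion of the Celf1 exon was lower in STZ. Psi, the authors' estimate of the fraction of transcripts that hold the exon, was 0.23, 0.22 and 0.23 in STZ A, STZ B and STZ C, against 0.32 and 0.31 in Control A and Control B. Every STZ library was below every Control library. Mean Psi was 0.227 ± 0.00577 in STZ (SD, n = 3) and 0.315 ± 0.00707 in Control (SD, n = 2), a difference of -0.0883. By Psi the skipping isoform, which starts at the downstream start codon shown above, was the major one in all 5 libraries. On the logit scale the change was -0.45 (SE 0.0402, 95% confidence interval -0.57 to -0.33), with an adjusted p of 0.0135 in limma over all tested events. Of all tested events, 10.1% were called lower in STZ by the same test and 4.84% were called higher. Groups whose Psi values do not overlap were found for 42.9% of tested events, so the separation of the groups is not a result about Celf1.

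The reads behind the Celf1 value were less even between the STZ libraries than Psi. Reads that fit only the including isoform numbered 182, 107 and 101 in STZ A, STZ B and STZ C, and 233 and 284 in Control A and Control B. Reads that fit only the skipping isoform numbered 170, 73 and 75 in the same STZ libraries, and 136 and 157 in the Control libraries. Together these are called informative reads. Their including share was 0.517 in STZ A, with a 95% Wilson interval of 0.465 to 0.569. STZ B had a share of 0.594 (0.521 to 0.663) and STZ C of 0.574 (0.50 to 0.645). Control A had 0.631 (0.581 to 0.679) and Control B 0.644 (0.598 to 0.687). All 3 STZ shares were below both Control shares. The interval of STZ A lies below those of both Control libraries, but the intervals of STZ B and STZ C overlap those of both Control libraries. These intervals cover counting error only. The share is not on the scale of Psi, which allows for the greater length of the including isoform and uses reads that fit both isoforms.

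Tests on those reads did not call the Celf1 exon. A logistic model of including-only against skipping-only reads gave a change of -0.36 with an adjusted p of 0.138 (unadjusted p = 0.0326 with the dispersion squeezed in limma), where 11.7% of tested events were called. limma on the logit of the read share, an alternative added after the data were seen, gave -0.32 with an adjusted p of 0.38, where 20.3% were called. The limma call on Psi rests on very even replicates. The pooled SD of Psi was 0.00624 for Celf1, less than the step of 0.01 to which Psi is rounded, and 13.9% of tested events had a smaller one. Leaving out Control A raised the adjusted p to 0.0651 and leaving out Control B raised it to 0.0532.

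The make-up of the Celf1 reads is given by class. Reads that fit both isoforms were 30.1%, 32.9% and 29.9% of the event's reads in STZ A, STZ B and STZ C, and 21.9% and 26.3% in Control A and Control B. Reads that fit neither isoform were 30.9%, 32.9% and 34.0% in STZ and 41.7% and 38.1% in Control. Including-only reads took 20.2% to 20.7% of the event's reads in STZ and 23.0% in both Control libraries, while skipping-only reads took 13.9% to 18.9% in STZ and 12.7% to 13.4% in Control. None of these 4 shares overlapped between the groups, and none was tested for a difference. Among tested events the groups did not overlap in the share of including-only reads for 52.5%, of skipping-only reads for 37.5%, of reads fitting both for 46.3% and of reads fitting neither for 57.6%. All 4 shares were free of overlap for 11.1%, so this separation too is not a result about Celf1.

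**Figure D1:**
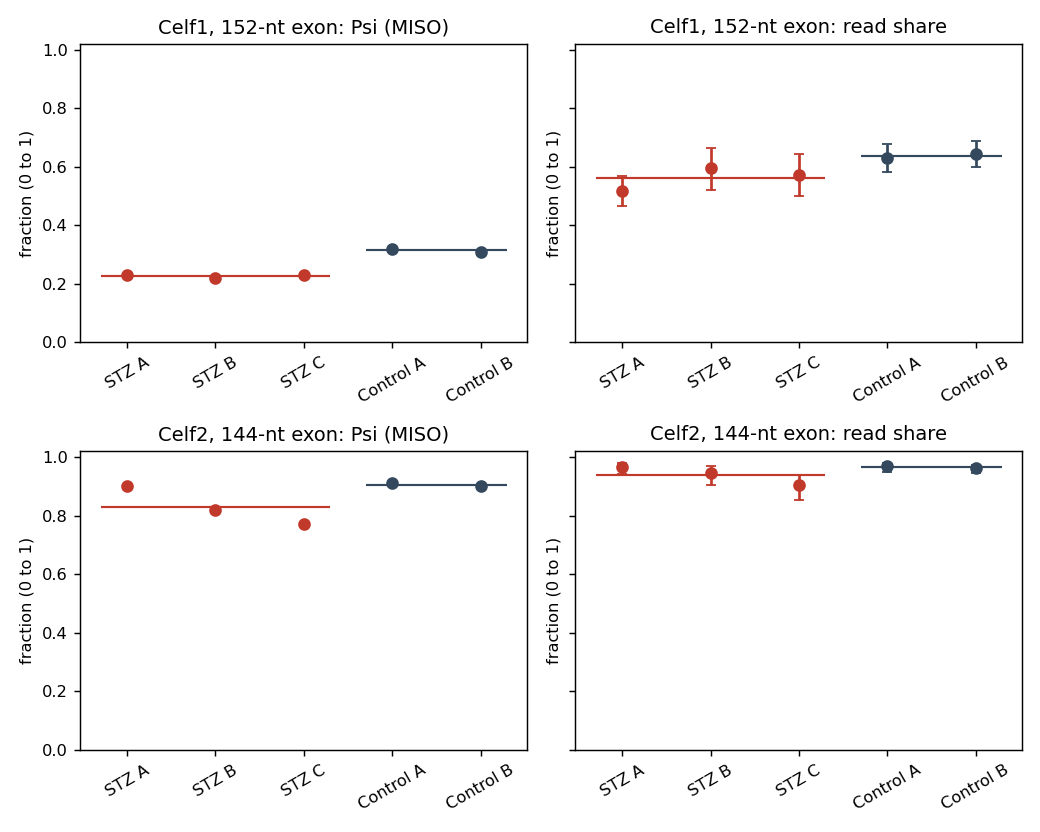
Inclusion of the Celf1 exon (upper row) and the Celf2 exon (lower row) in each library, as the deposited Psi (left column) and as the including share of informative reads (right column), both as fractions from 0 to 1. Points are libraries, horizontal lines are group means, bars on the right are 95% Wilson intervals, and the Celf1 Psi values sit at 0.22 to 0.23 in STZ and 0.31 to 0.32 in Control.

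The Celf2 exon was mostly included in every library, and its lower mean in STZ did not pass the test. Psi was 0.90, 0.82 and 0.77 in STZ A, STZ B and STZ C, against 0.91 and 0.90 in Control A and Control B. STZ A stood at the level of the Control libraries, so the groups overlap, and the lower mean came from STZ B and STZ C. Mean Psi was 0.83 ± 0.0656 in STZ (SD, n = 3) and 0.905 ± 0.00707 in Control (SD, n = 2), a difference of -0.075. On the logit scale this was -0.61 (SE 0.344, 95% confidence interval -1.61 to 0.38), with an adjusted p of 0.344 in limma. Without STZ A the logit change was -0.89 with an adjusted p of 0.0805 in limma, and without STZ C it was -0.40 with an adjusted p of 0.54. The interval reaches from a large negative to a small positive change, so these libraries do not settle whether the exon changed.

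Few reads fitted the skipping isoform of Celf2 alone. Skipping-only reads numbered 13, 10 and 19 in STZ A, STZ B and STZ C, and 14 and 26 in Control A and Control B. Including-only reads numbered 370, 176 and 177 in the STZ libraries, and 429 and 666 in the Control libraries. The including share was 0.966, 0.946 and 0.903 in STZ A, STZ B and STZ C, and 0.968 and 0.962 in Control A and Control B. STZ C was the lowest, with a Wilson interval of 0.854 to 0.937, which lies below those of Control A (0.948 to 0.981) and Control B (0.946 to 0.974). STZ A again stood with the Control libraries. The logistic model of the reads gave a change of -0.46 (adjusted p = 0.52 with the dispersion squeezed in limma).

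Most Celf2 reads fitted both isoforms, making up 82.2%, 83.8% and 84.7% of the event's reads in STZ A, STZ B and STZ C and 82.5% and 81.6% in Control A and Control B. Informative reads were 3.10% to 4.43% of the event's reads in STZ and 4.35% to 5.56% in Control. The exon after the Celf2 cassette is 7516 nt long in the event, and the exon before it 198 nt. The flanking exons of Celf1 are 261 and 188 nt, and there the informative share was 34.2% to 39.1% in STZ and 35.7% to 36.4% in Control. In the plot of read classes, the band of reads fitting both isoforms therefore fills most of each Celf2 column.

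**Figure D2:**
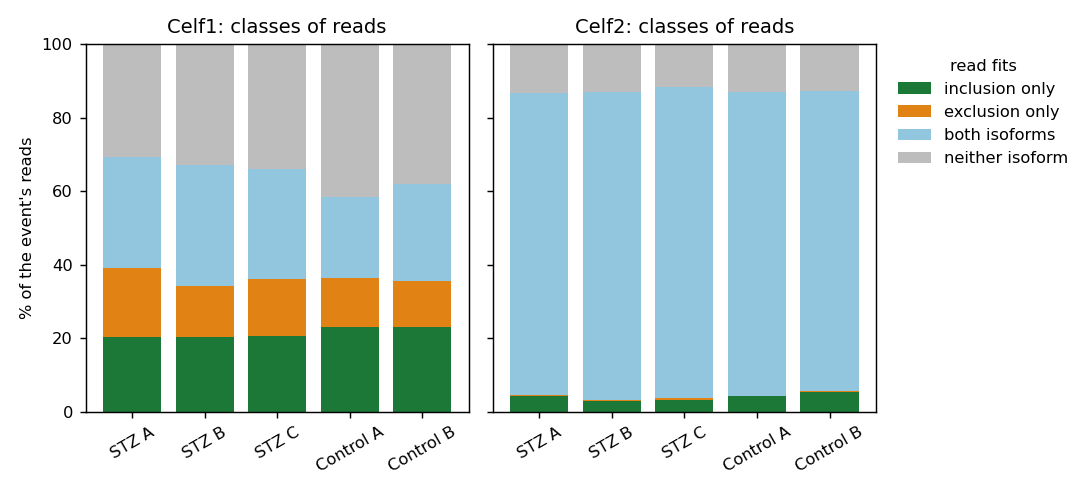
Percent of each event's reads (vertical axis) in 4 classes, per library, for Celf1 (left) and Celf2 (right): reads that fit the including isoform alone, the skipping isoform alone, both, or neither. Reads that fit both isoforms made up 29.9% to 32.9% of Celf1 reads in STZ and 21.9% to 26.3% in Control, and 81.6% to 84.7% of Celf2 reads over all 5 libraries.

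Set against the whole table, the changes of both exons were of moderate size. The change of Psi was larger in size than that of 71.6% of tested events for Celf1 and of 67.5% for Celf2. The median change over all tested events was -0.01, and over the 2 Celf exons it was -0.0817. What set the exons apart was the spread within groups. The pooled SD of Psi was 0.0537 for Celf2, larger than in 75.9% of tested events, against a median of 0.0249. One of the 2 exons was called, and whether the change differed between Celf1 and Celf2 was not tested.

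**Figure D3:**
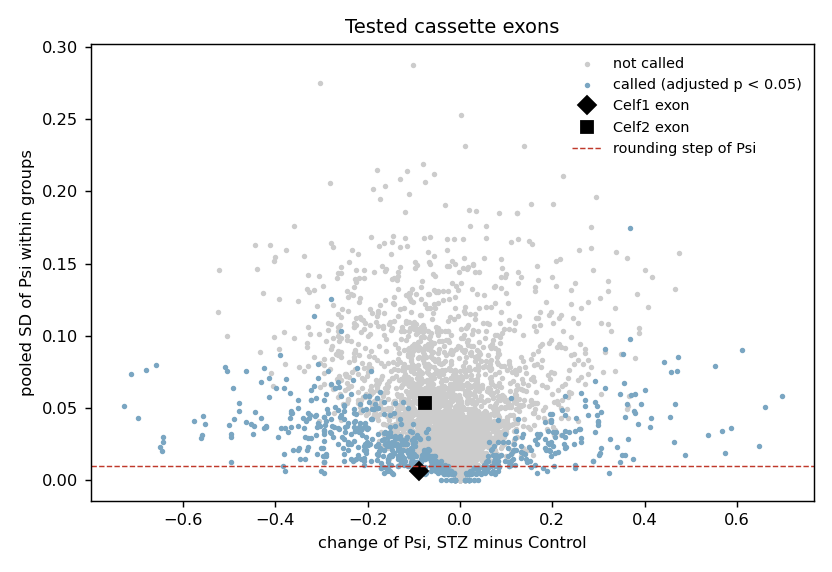
Change of Psi (STZ minus Control, horizontal axis) against the pooled SD of Psi within groups (vertical axis) for the 4769 tested events, with events called by limma in blue. The Celf1 exon (diamond) lies under the dashed line at 0.01, the rounding step of Psi, at a change of -0.0883, and the Celf2 exon (square) lies at -0.075 with a pooled SD of 0.0537.

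The authors' deposited tables compare 1 library with 1, as Control minus STZ, so a positive difference means lower inclusion in STZ. For the Celf1 exon the difference in the authors' deposited table was 0.08 to 0.1 in all 6 comparisons. Its Bayes factor, the weight of evidence for a difference, was 10.51 and 3.81 for STZ A against Control A and Control B. It was 8.76 and 4.77 for STZ B, and 1.76 and 1.53 for STZ C. For the Celf2 exon, the authors' deposited table gave differences of 0.01 and 0 for STZ A, with Bayes factors of 0.07 and 0.06. The differences were 0.09 and 0.08 for STZ B in the authors' deposited table, with Bayes factors of 2.91 and 0.7. STZ C stood out in the authors' deposited table, with differences of 0.14 and 0.13 and Bayes factors of 1553581.36 and 285.47. The comparisons share libraries and are not independent. Of 6331 events, 3.22% differed by 0.20 or more with a Bayes factor of 10 or more in every one of the 6 tables, and neither Celf exon was among them.

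Reads on the Celf events were counted as a rough guide to the genes' RNA. The Celf1 event had 60.4, 36.2 and 38.4 RPM in STZ A, STZ B and STZ C, against 59.1 and 59.0 in Control A and Control B. STZ A had as many as the Control libraries, and STZ B and STZ C had fewer. The log2 difference of STZ over Control was -0.43, with an exact two-sided permutation p of 0.4, where 0.1 is the smallest p that 3 against 2 libraries allow. It was -0.66 without STZ A. The Celf2 event had 579, 413 and 427 RPM in STZ A, STZ B and STZ C, against 594 and 594 in Control A and Control B. The log2 difference was -0.35, with an exact two-sided permutation p of 0.2. STZ A was again the nearest to the Control libraries.

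Those values depend on the scaling. The median event was itself lower in STZ by this measure, at -0.26 on the log2 scale over 6331 events. Relative to that median, the Celf1 event stood at -0.17 and the Celf2 event at -0.09 on the log2 scale. Of all events, 41.9% were lower than Celf1 by this measure and 45.8% were lower than Celf2, so by reads of all classes neither gene stood apart. From informative reads alone, the Celf2 event was at -0.81 on the log2 scale and at -0.49 relative to the median event, with 29.6% of events lower. With median ratio scaling of the informative reads, the Celf2 event was at -0.51 (exact two-sided permutation p = 0.3). Reads per event do not allow for length, so the levels of Celf1 and Celf2 are not compared with each other.

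**Figure D4:**
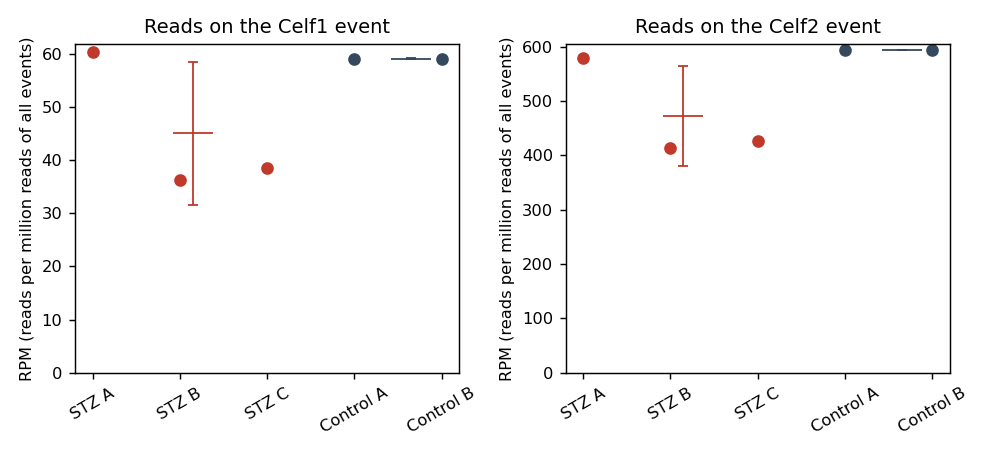
Reads on the Celf1 event (left) and the Celf2 event (right) in RPM (reads scaled to 1000000 reads of all events), per library. Points are libraries, and horizontal marks with bars are group means with their SD. STZ A, at 60.4 for Celf1 and 579 for Celf2, lies near both Control libraries, while STZ B and STZ C lie lower.

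The remaining CELF family members gave no tested event. Celf3, Celf5 and Celf6 had no event in the tables. Celf4 had 1 event in 3 of the tables, with 4 informative reads in all.

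By a rule on likeness, the mean absolute difference of Psi over the 5 libraries, the 3 tested events nearest to the Celf1 exon lay in Mbd1 (168 nt), Maz (230 nt) and Cuta (52 nt), at 0.018, 0.018 and 0.02. The Maz exon had Psi of 0.22, 0.20 and 0.20 in STZ A, STZ B and STZ C, and 0.31 and 0.29 in Control A and Control B. It was called (adjusted p = 0.023 in limma), while the exons of Mbd1 and Cuta were not (adjusted p = 0.166 and 0.0865 in limma). Nearest to the Celf2 exon were events in Ispd (150 nt), Eya3 (137 nt) and Mcph1 (115 nt), at 0.016 each. The Ispd exon had Psi of 0.90, 0.86 and 0.76 in STZ A, STZ B and STZ C, and 0.92 in both Control libraries. With 5 libraries, likeness of this kind describes the values and nothing further.

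Several exons of proteins that work with or against CELF proteins were called as changed in STZ. The list of these proteins was written with earlier results of these data known, so its counts are a description only. Of 15 tested events in 7 of 9 listed regulators, 3 were called higher and 4 lower in STZ (4.84% and 10.1% of all tested events), with a median change of -0.01 and a median size of 0.125, against 0.035 over all tested events. For each gene only the event with most informative reads is named. Those of Hnrnph1, Mbnl1, Ptbp2 and Rbfox2 were not called (adjusted p = 0.362, 0.393, 0.179 and 0.435 in limma). Hnrnph1 and Mbnl1 had calls at other events. The called ones among the named events are described next. The 95-nt exon of Mbnl2, a muscleblind protein that opposes CELF1 on many exons, rose to a mean Psi of 0.523 ± 0.0513 in STZ, against 0.11 ± 0.0141 in Control (adjusted p = 0.00926 in limma, n = 3 and 2). The 45-nt exon of Hnrnph2, of the hnRNP H family, fell to 0.24 ± 0.0346 in STZ, against 0.58 ± 0.0566 in Control (adjusted p = 0.0214 in limma). Ptbp1 encodes a polypyrimidine-tract binding protein, and its 78-nt exon fell to 0.2 ± 0.0346 in STZ, against 0.55 ± 0.0424 in Control (adjusted p = 0.018 in limma). Dropping STZ A, STZ B or STZ C in turn changed the count of 7 to 7, 4 and 3. Calls over the whole table fell in those runs too. They numbered 467 of 4805, 304 of 4866 and 348 of 4874 tested events, against 713 of 4769 with all libraries. Runs that drop a Control library keep too few Controls for a count.

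Genes with exons known to respond to CELF proteins gave a mixed picture. This list too was written with earlier results of these data known. Every tested event of a listed gene was counted. An exon named here is the event with most informative reads in its gene. Whether it is the CELF-responsive exon of that gene was not tested. Of 33 tested events in 12 of 19 listed genes, 5 were called higher and 4 lower in STZ (4.84% and 10.1% of all tested events), with a median change of -0.01. The median size was 0.055, against 0.035 over all tested events. Mbnl1 and Mbnl2 stand on both lists, so their 3 calls are counted under both. The 92-nt exon of Fxr1, an RNA-binding protein of muscle, fell to 0.76 ± 0.0361 in STZ, against 0.91 ± 0.0141 in Control (adjusted p = 0.0286 in limma). The 9-nt exon of Tnnt2, cardiac troponin T, had a mean Psi of 0.72 ± 0.0265 in STZ and 0.68 ± 0.0141 in Control (adjusted p = 0.283 in limma). The 113-nt exon of Capzb, an actin-capping subunit, had 0.86 ± 0.01 in STZ and 0.915 ± 0.0212 in Control (adjusted p = 0.0835 in limma). The count of 9 became 7, 6 and 4 when STZ A, STZ B or STZ C was dropped. Over all tested events the same runs gave 467, 304 and 348 calls, against 713 with all libraries. Counts from runs that drop a Control library are not given here either. No relation between these exons and the Celf1 or Celf2 exon was tested.

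**Figure D5:**
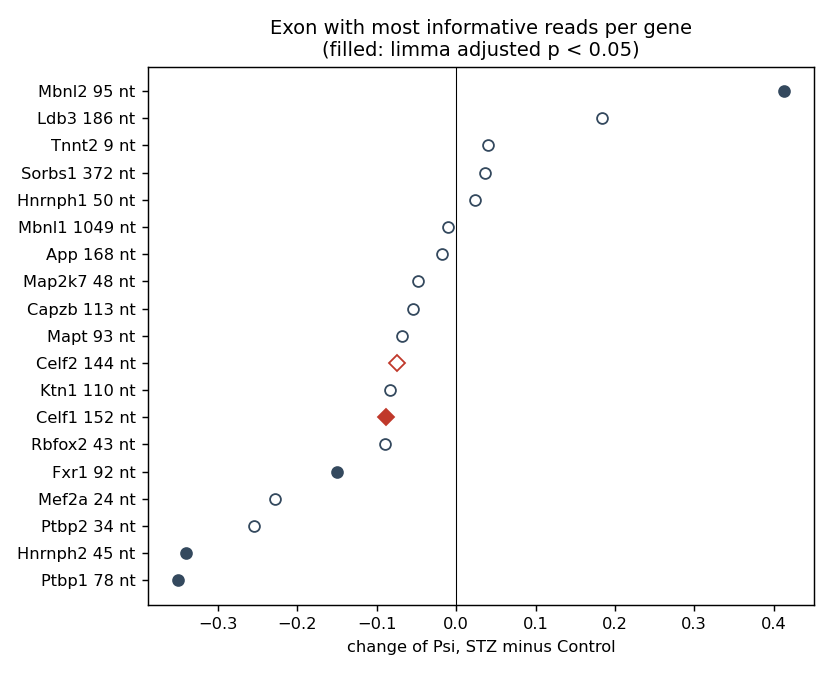
Change of Psi (STZ minus Control, horizontal axis) of the Celf1 and Celf2 exons (red diamonds) and of the exon with most informative reads in each listed regulator or CELF-responsive gene (dark circles). Filled marks passed an adjusted p of 0.05 in limma; they are the exons of Mbnl2, Celf1, Fxr1, Hnrnph2 and Ptbp1.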

How the data were processed

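RNA from mouse left ventricle was sequenced in 3 STZ and 2 Control samples. The submitters' processing notes name CASAVA 1.8.2, TopHat without a version, and the build mm9. MISO comparisons of cassette exons, 1 library against 1, were deposited by the authors in 6 tables, with MISO's version and event filter not given in the sources used here. Psi is a fraction, the posterior mean per the file headers, which the authors deposited with 2 decimals. Raw read counts in 4 classes and the difference, a unit recorded as other, and the Bayes factor, a ratio, are also deposited by the authors, per the file headers. A further 36 columns of values per library were not used.

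Library codes were assigned to groups by group size alone (3 and 2). Events were named by matching exon and intron lengths to GENCODE transcripts of GRCm38 (5958 events), then by the gene in the files (317), and 341 stayed unnamed. Where both names existed, the match held the gene of the files for 98.6% of 3314 events. Protein sequences were not used here.

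Events with at least 10 informative reads in every library were tested in limma 3.58.1 (R 4.3.3), two-sided, on the logit of Psi clipped to 0.01 to 0.99. The prior variance followed the log2 mean of informative reads, and Benjamini-Hochberg adjustment ran over 4769 events, with a threshold of 0.05. The read model was a quasi-binomial logistic model with limma's squeezed dispersions. The logit of the read share had 0.5 reads added to each class. Scripts were tested on simulated data, where rounding of Psi raised the number of false calls on the logit of Psi. RPM values were compared by exact permutation over samples. Alternatives changed the clip, read minimum, prior variance, scale, measure, scaling and libraries. Named events are every Celf1 and Celf2 event, the 3 most alike events of each, and for listed genes at most the event with most informative reads. Fxr1, Tnnt2, Capzb, Mbnl2, Hnrnph2 and Ptbp1 were chosen among those events after their values were seen. The members and lists were chosen with earlier results of these data known.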

Additional observations from a re-analysis of the deposited data

How the results depend on the processing

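The Celf1 exon was lower in STZ under every alternative run, but no run could have reversed this direction. Every STZ library was below every Control library both in Psi and in the including share of reads. The Celf1 logit change lost the call in the model of the reads (-0.36) and on the logit of the read share (-0.32, added after seeing the data). It ran from -0.47 to -0.43 with 1 library left out. The count of Celf exons called was 0 in both read-based tests and 0 to 1 with 1 library left out, 0 without either Control library. The cause was not tested. The Celf2 change stayed negative and uncalled under every alternative. Its log2 difference in RPM was -0.81 from informative reads alone and -0.0935 with median ratio size factors. Called regulator events ran from 3 to 7, and CELF-responsive gene events from 2 to 7, with 1 library left out, which leaves fewer samples. These ranges include the runs that drop a Control library. Those runs keep too few Controls for a count, so the ranges are not read as a result about the lists. Without STZ A, STZ B or STZ C, regulator calls were 7, 4 and 3 and CELF-responsive gene calls 7, 6 and 4. Calls over all tested events fell in the same runs to 467, 304 and 348, against 713 with all libraries. Neither Celf exon passed the authors' measures in all 6 tables at a difference of 0.10 or Bayes factors of 5 or 20. For Celf2, 42 skipping-only reads in STZ and 40 in Control limit what the reads can show. No paired analysis was possible because the library codes carry no replicate number of the labels.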
